A study of Mus musculus with 2 samples.

Results

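Natural killer (NK) cells made up 421 of the 22639 cell barcodes kept from MC38 tumours, 214 in the library of floxed control mice and 207 in the library of mice with a myeloid Cre allele. A cell was taken as an NK cell when it held at least 2 UMIs of Ncr1 and Klrb1c together, at most 1 UMI of Cd3d, Cd3e and Cd3g together, and under 0.3% of its UMIs from C1qa, C1qb and C1qc. A UMI (unique molecular identifier) marks 1 captured RNA molecule. Ncr1 encodes the activating receptor NKp46 and Klrb1c encodes NK1.1, while the Cd3 genes mark T cells and the C1q genes mark macrophages. These 8 genes chose the cells, so their levels describe the choice and are no finding.

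MC38 is a mouse colon carcinoma line, and live CD45-positive cells had been sorted from its tumours and run on 10x Genomics 3-prime chips. The floxed control mice (SPP1fl/fl) carried loxP-flanked Spp1, the gene of the secreted phosphoprotein osteopontin, and no Cre. The Lyz2-icre mice (SPP1fl/fl-Lyz2-icre) carried the same floxed gene and a Cre recombinase driven by the lysozyme 2 gene, which is active in macrophages, monocytes and neutrophils and is not an NK cell gene. The stated purpose was to learn how macrophage osteopontin acts on colorectal cancer. The number of mice, their age and the exons flanked by loxP sites were not stated, and tumours of female and male animals went into each library, as Xist and Y-linked transcripts showed in different cells. With 1 library per genotype there was no replicate and no test of any difference between genotypes. All intervals are at 95% and give counting error only, without any spread from mouse to mouse. Those of CPM ratios take each UMI as an independent draw, so they also leave out the spread from cell to cell and are too narrow where few cells hold most UMIs.

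NK cells are innate lymphocytes that kill stressed, infected or transformed cells without rearranged antigen receptors. Activating and inhibitory receptors, many of them lectin-like proteins encoded side by side in the NK gene complex, set whether the cell releases perforin, which opens the target membrane, and granzymes, serine proteases that then enter the target. In tumours, NK cells also release the chemokines XCL1 and CCL5, which attract dendritic cells, and interferon gamma, and they depend on interleukin 15, read through the receptor chain encoded by Il2rb.

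The label was checked against 15 NK marker genes, 13 of them not in the gate. All 15 had UMIs in the NK cells of both libraries, and together they took 10694 CPM (UMIs of the genes scaled to 1000000 UMIs of the class) in the control and 12967 CPM in the Lyz2-icre library. The same 15 genes took 3273 CPM in control T cells, defined as cells with at least 2 Cd3 UMIs and under 0.3% C1q. In C1q-high cells (at least 0.3% C1q) they took 4302 and 4610 CPM, with Tyrobp and Fcer1g, which myeloid cells also use, making up 1634.5 and 2543.5 CPM of the control sum. These sums include the gate genes Ncr1 and Klrb1c. The 13 markers outside the gate took 10006 and 12100 CPM in NK cells and 3198 and 3466 CPM in T cells. In C1q-high cells those 13 took 4295.5 and 4603.5 CPM. Natural killer lectin-like receptor Klrd1 stood at 888 and 1324 CPM, Il2rb at 1305 and 1321 CPM, the perforin gene Prf1 at 774 and 768 CPM, and the NK transcription factor gene Eomes at 125 and 109 CPM. At an equal depth of 2000 UMIs per cell, 93.7% and 91.3% of NK cells held an Il2rb UMI, against 2.73% and 2.75% of C1q-high cells, the class taken as background. T cells shared the gene, with an Il2rb UMI in 69.9% and 66.2% of them. Klrd1 was found in 75.4% and 89.2% of NK cells and in 43.0% and 61.1% of T cells. Among T cells with a Cd8a or Cd8b1 UMI and no Cd4 UMI (CD8 T cells), Klrd1 was found in 66.7% and 84.4%. The integrin gene Itga2, whose product CD49b marks mouse NK cells in flow cytometry, gave only 29 and 21 UMIs.

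T cell markers outside the gate were low. The 9 of them other than the Cd3 genes summed to 156 and 199 CPM, against 1919 and 2074 CPM in T cells, and Cd5, Cd4 and Foxp3 had no UMI in control NK cells and Cd8a none in Lyz2-icre NK cells. Il17a and Sox13 of gamma-delta T cells, Il13, Il5 and Il17rb of group 2 innate lymphoid cells, and Ms4a1, Cd79a and Pax5 of B cells were at 0 in both libraries. A count of 0 allows up to 1.74 CPM in NK cells of the control and 2.76 CPM in Lyz2-icre NK cells. Other members of these lists had UMIs. The whole lists summed to 43.5 and 34.9 CPM for gamma-delta T cells, 192 and 146 CPM for group 2 innate lymphoid cells, and 138 and 157 CPM for B or plasma cells, the last against 106 and 90.1 CPM in T cells. Dendritic cell markers, all 10 of which had UMIs, summed to 1312 and 1674 CPM, against 3068 and 3436 CPM in T cells, and plasmacytoid dendritic cell markers to 269 and 332 CPM, against 217 and 243 CPM. Neutrophil markers summed to 43.5 and 9.19 CPM, and mast cell or basophil markers to 33.6 and 7.36 CPM. The part of these cells in the results was not tested.

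Macrophage and fibroblast transcripts were present and uneven. The 13 macrophage markers summed to 2923 CPM in NK cells of the control and 1501 CPM in Lyz2-icre NK cells, and the 8 fibroblast or tumour markers to 976 and 17.5 CPM. Most of the second difference lay in few cells, since the collagen gene Col3a1 counted 1105 UMIs in 10 control cells and 6 UMIs in 5 Lyz2-icre cells. In all, 17 control and 5 Lyz2-icre NK cells either took over 0.5% of their UMIs from macrophage markers other than C1q or held at least 5 UMIs of 5 fibroblast genes. Results between libraries that rest on these cells are given with and without them, and no doublet caller was used. The 10 macrophage markers behind the 0.5% limit include Lyz2, the gene that carries the Cre allele. They summed to 25999 CPM in C1q-high cells of the control and 17658 CPM in those of the Lyz2-icre library. The same amount of macrophage RNA would thus reach the limit less readily in the Lyz2-icre library. The libraries shared 43 cell barcodes, none of them an NK cell in both.

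**Figure D1:**
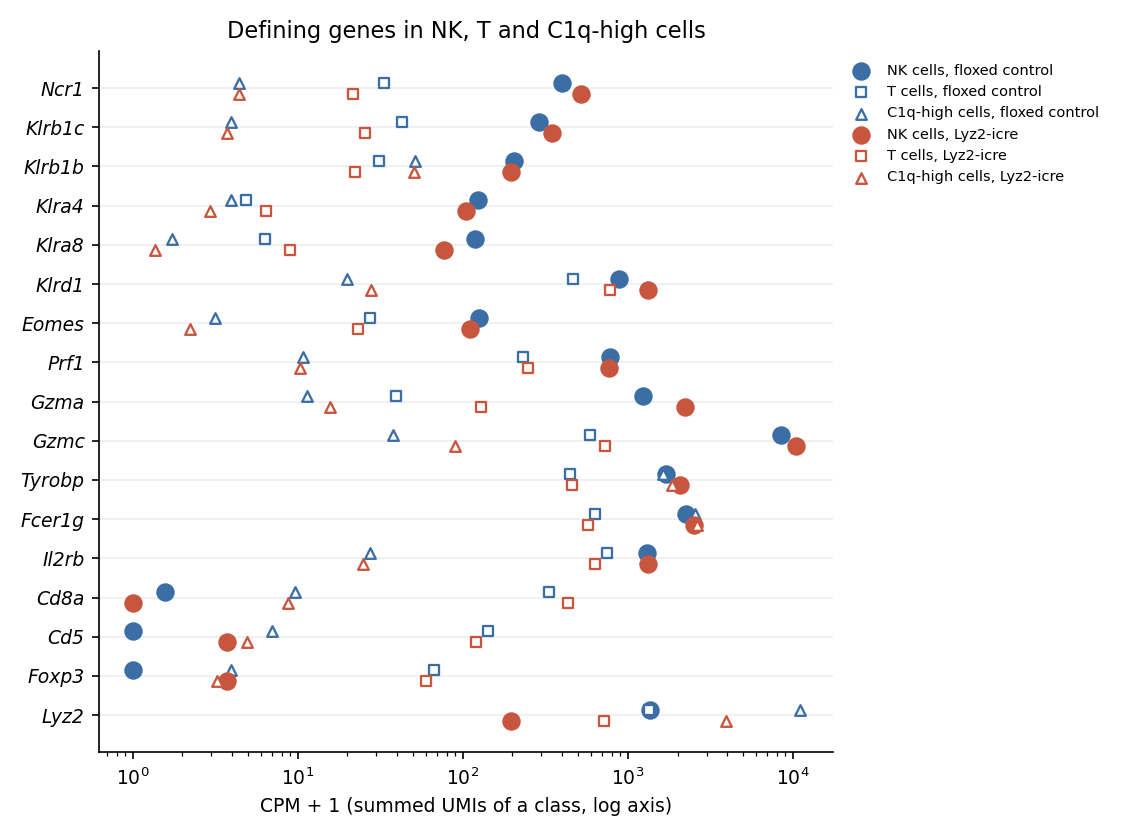
Summed expression of 17 marker genes in NK cells, T cells and C1q-high cells of the floxed control and Lyz2-icre libraries, in CPM plus 1 on a log axis, 1 point per class and library. NK cells carry the receptor and granzyme genes at the highest levels, share Tyrobp and Fcer1g with C1q-high cells (2254 and 2543.5 CPM of Fcer1g in the control), and have Cd8a, Cd5 and Foxp3 at or near 0.

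At the limit on Ncr1 and Klrb1c, cells just outside the gate were about as many as those just inside it. In the control library 34 NK cells had exactly 2 UMIs of the gate genes and 32 cells outside had 1, and in the Lyz2-icre library there were 44 and 44. Control cells just inside held 796 CPM of Klrd1 and 430 CPM of the macrophage gene Lyz2, and those just outside 442 and 3641 CPM. For the Lyz2-icre library the corresponding values were 1183 and 208 CPM inside, and 928 and 1021 CPM outside. At the Cd3 limit, 14 control and 8 Lyz2-icre NK cells had 1 UMI, and 8 and 6 cells outside had 2 or 3. At the C1q limit, 3 and 6 NK cells lay between 0.2% and 0.3%, and 12 and 14 cells outside lay between 0.3% and 0.5%. A further 58 control and 29 Lyz2-icre cells had both Cd3 and the NK receptors and were counted as T cells.

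NK cells were a smaller share of the Lyz2-icre library and a similar share of its NK and T cells. They were 2.45% of 8724 kept control cells (2.14% to 2.80%) and 1.49% of 13915 kept Lyz2-icre cells (1.29% to 1.70%), a ratio of 0.606 (0.499 to 0.738). Among NK and T cells together, they were 24.5% of 873 control cells and 23.8% of 868 Lyz2-icre cells, a ratio of 0.973 (0.80 to 1.18). Within female cells the ratio of shares among kept cells was 0.554, and within male cells, which held 32 and 39 NK cells, it was 0.893 (0.545 to 1.47). The libraries differed in depth, with a median of 6799 UMIs per NK cell in the control and 4535 in the Lyz2-icre library. The median mitochondrial share of NK cells was 1.87% and 0.970%. In another setting cells under 2000 UMIs were left out, and the other 8113 and 12192 kept cells were drawn to 2000 UMIs before gating. Then 87 and 110 cells passed, and the ratio became 0.841 (0.629 to 1.13) among kept cells and 1.44 (1.08 to 1.93) among NK and T cells. The share among NK and T cells was thus higher in the Lyz2-icre library among cells of at least 2000 UMIs gated at equal depth. Of the T cells of the main gate, 31 of 659 control and 149 of 661 Lyz2-icre cells were under 2000 UMIs, as were 7 and 12 NK cells. The part of this uneven loss in the ratio was not tested. Fewer NK cells in a tumour and more of the other sorted cells cannot be told apart from shares.

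NK cells stood apart from the pooled T cells of the same tumours by several lectin-like receptors, granzymes and receptor adaptors. Of 3308 genes at 50 CPM or more in the higher class of each library, 65 (1.96%) were at least 2-fold higher in NK cells in both libraries and 94 (2.84%) at least 2-fold higher in T cells, with a median log2 ratio over all genes of -0.05. Log2 ratios carry 5 CPM added to each side. UMIs were read at 3-prime ends and were not divided by gene length. Both classes were chosen by expression, so these ratios describe them and were not tested. The count higher in T cells was 155 without the NK cells holding macrophage or fibroblast RNA and 58 with a C1q limit of 1%. The genes at 50 CPM depend on the setting, so these counts are not shares of the same 3308 genes.

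Activating receptors came first. Of 12 listed and measured, 4 were higher in NK cells (Klra4, Klra8, Klrb1f and Cd244a) and 1, the adhesion receptor gene Cd2, in T cells. Klra4, which encodes the activating receptor Ly49D, stood at 123 and 104 CPM in control and Lyz2-icre NK cells and at 3.90 and 5.41 CPM in T cells. Klra8, which encodes Ly49H, stood at 118 and 76.3 CPM against 5.36 and 7.93 CPM. The Ly49 genes are near-identical copies, so reads may have been split or shared among them and their single values are uncertain. Klrk1, which encodes the stress-ligand receptor NKG2D, was at 467 and 516 CPM in NK cells and 276 and 283 CPM in T cells, under 2-fold apart.

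Of 7 inhibitory receptors 4 were higher in NK cells (Klre1, Klra7, Klrb1b and Klri2) and none in T cells, with a median log2 ratio of 1.16. Klrb1b, the inhibitory counterpart of NK1.1, stood at 203 and 196 CPM against 29.9 and 21.3 CPM in T cells. The NKG2A gene Klrc1, in contrast, stood at 163 and 230 CPM in NK cells and 135 and 210 CPM in T cells, so it did not mark NK cells here. At 2000 UMIs per cell Klrc1 was found in 25.1% and 33.8% of NK cells and in 40.7% and 47.5% of CD8 T cells. Of 16 adaptor and signalling genes, 3 were higher in NK cells. Tyrobp, which encodes DAP12, was at 1697 and 2069 CPM against 445 and 459 CPM, and Fcer1g, which encodes the Fc receptor gamma chain, at 2254 and 2530 CPM against 635 and 576 CPM. The third was Sh2d1b1, which encodes an adaptor of the SLAM receptors.

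Among 22 transcription factor genes, Eomes and Irf8 were higher in NK cells and Ikzf2, Maf, Rora and Hif1a in T cells. Eomes was at 26.5 and 22.4 CPM in T cells, which gave log2 ratios of 2.04 and 2.06. Tbx21, which encodes T-bet, stood at 104 and 100 CPM in NK cells and 59.4 and 51.2 CPM in T cells, under the 2-fold line. Of 12 checkpoint and costimulation genes none was higher in NK cells and 7 were higher in T cells, with a median log2 ratio of -1.201. Pdcd1, which encodes PD-1, stood at 42.9 and 34 CPM in NK cells and 190 and 147 CPM in T cells, and the costimulatory receptor gene Tnfrsf4 at 5.22 and 9.19 CPM against 463 and 386 CPM.

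The secreted factors divided between the classes. Xcl1, a chemokine gene whose receptor marks cross-presenting dendritic cells, was at 1800 and 1822 CPM in NK cells against 545 and 488 CPM in T cells. Ifng, which encodes interferon gamma, went the other way, at 118 and 159 CPM in NK cells and 310 and 467 CPM in T cells. Csf1, Ccl1 and Areg were also higher in T cells, and Ccl5 stood at 858 and 883 CPM in NK cells and 1257 and 973 CPM in T cells. None of 18 cell cycle genes differed 2-fold, and cells with at least 2 UMIs of 8 proliferation genes were 27.1% and 22.2% of NK cells and 28.2% and 24.7% of T cells.

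Of 11 conventional NK maturation genes, 5 were higher in NK cells, Eomes, Irf8, Klra4 and Klra8 among them, and 1 in T cells, with a median log2 ratio of -0.10. Of 19 cytokine receptor and signalling genes none was higher in NK cells and 3 (Il2ra, Il7r and Il18r1) were higher in T cells. Of 19 homing genes 2 were higher in NK cells, Itga1 among them, and Cxcr6, Ccr7 and Cx3cr1 were higher in T cells. Itga1, whose product CD49a holds lymphocytes to collagen, stood at 178 and 185 CPM in NK cells and 60.1 and 57.3 CPM in T cells. Of 17 glycolysis and hypoxia genes the angiogenic factor gene Vegfa was the 1 higher in NK cells, at 180 and 128 CPM against 45.5 and 60.6 CPM. None of 15 MHC class I presentation and 4 osteopontin receptor genes differed 2-fold.

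Ranked over all genes by the mean of both log2 ratios, the 12 highest in NK cells were Gzmg, Gzma, Gzmc, Klra4, Gzmd, Car2, Klra8, Klrb1f, Klrb1b, Klrb1a, Emid1 and Gzme. The carbonic anhydrase gene Car2 stood at 280 and 246 CPM in NK cells and 34.3 and 13.7 CPM in T cells. The 12 lowest were Cd8a, Il17a, Tnfrsf4, Cd8b1, Cd6, Cd5, Klrh1, Themis, Penk, Foxp3, Bcl11b and Dusp4, which hold T cell coreceptors, T cell developmental regulators and genes of regulatory and interleukin 17-producing T cells. Klrh1 was the only lectin-like receptor gene among these 12, at 0.579 and 0 CPM in NK cells and 92.3 and 88.0 CPM in T cells.

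Granzymes filled 5 of the 12 highest places, and NK cells carried them unevenly. Gzmc encodes granzyme C, a protease of activated killer lymphocytes, and at 8413 and 10376 CPM it ranked 5th and 3rd of all genes in control and Lyz2-icre NK cells. In T cells it stood at 590 and 726 CPM. Gzma, which encodes the tryptase granzyme A, was at 1237 and 2233 CPM, against 38.5 and 128 CPM in T cells. Gzmb, which encodes the caspase-activating granzyme B, was at 1066 and 1887 CPM, against 547 and 679 CPM. Of 17 cytotoxic genes, 8 were higher in NK cells, none in T cells, and the median log2 ratio was 1.21. Prf1, Ctsw and the granzyme B inhibitor gene Serpinb9 were among the 8.

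At 2000 UMIs per cell, 31.4% of control NK cells (25.1% to 38.2%) and 42.1% of Lyz2-icre NK cells (35.0% to 49.3%) held a Gzma UMI, against 2.23% and 2.93% of T cells and 0.489% and 0.605% of C1q-high cells. For Gzmc the shares were 66.7% and 71.3%, against 9.71% and 11.9% of T cells and 1.24% and 1.90% of C1q-high cells. Median depths before drawing were 6799 and 4535 UMIs in NK cells, 4688 and 3122 in T cells, and 10389 and 6983 in C1q-high cells. Single NK cells held up to 53 and 39 Gzma UMIs and up to 113 and 100 Gzmc UMIs per 2000. Gzmd and Gzmg were carried by far fewer cells, and 1 control cell held 50.3% of all Gzmd UMIs and 77.5% of all Gzmg UMIs. In the Lyz2-icre library the top cell held 26.1% and 50.1%.

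Gzmc was carried by a smaller share of the NK cells with Gzma than of those without it, in both libraries. A cell was counted as positive at 2 or more UMIs per 2000, a threshold chosen after the values were seen, and 207 control and 195 Lyz2-icre NK cells were deep enough. Among Gzma-positive cells, 36.2% of 58 control cells (24.0% to 49.9%) and 42.5% of 73 Lyz2-icre cells (31.0% to 54.6%) were also Gzmc-positive. Among Gzma-negative cells the shares were 70.5% of 149 (62.5% to 77.7%) and 80.3% of 122 (72.2% to 87.0%). Female cells gave 30.6% against 69.8% in the control and 52.9% against 74.7% in the Lyz2-icre library. Male cells gave 61.5% of 13 against 66.7% of 18 in the control, nearly level, and 27.3% of 11 against 84.6% of 26 in the Lyz2-icre library. Of the 69 control and 68 Lyz2-icre cells with at least 20 Gzmc UMIs, 61 and 54 had no Gzma UMI. At the threshold, 7 and 9 cells had 1 Gzma UMI and 12 and 3 cells had 2, and 12 and 10 cells had 1 Gzmc UMI and 8 and 3 cells had 2.

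**Figure D2:**
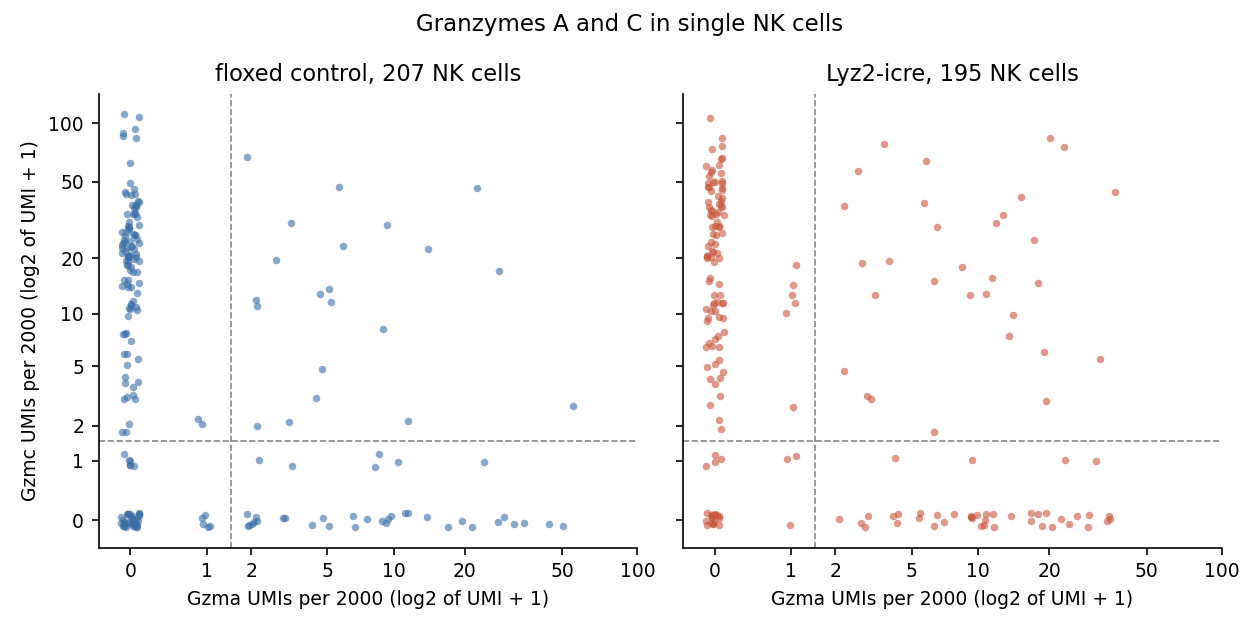
Gzma and Gzmc UMIs of each NK cell after drawing to 2000 UMIs, on log2(UMI + 1) axes with small random offsets, for 207 control and 195 Lyz2-icre cells. Dashed lines mark the 2-UMI threshold, and the points lie along both axes with 21 control and 31 Lyz2-icre cells above both lines.

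The granzyme genes sit in separate places of the genome. Gzma lies at chr13:113093825-113100981 on the minus strand. Gzmc lies at chr14:56231441-56234656 on the minus strand, within a cluster of 6 granzyme genes (Gzme, Gzmd, Gzmg, Gzmf, Gzmc and Gzmb in order) that spans 144.6 kb, all in GRCm38. The 250 bases before the start sites of Gzma, Gzmc and Gzmd are shown because Gzma and Gzmc tended to lie in different cells while Gzmd was carried by cells with Gzmc. They come from the RefSeq promoter table of GRCm38.p6, are written 5′ to 3′ on the gene's own strand (minus for all 3), and capitals mark TGTGGT, the core of the RUNX motif, on either strand (ACCACA on the other).
Gzma, chr13:113100982-113101231: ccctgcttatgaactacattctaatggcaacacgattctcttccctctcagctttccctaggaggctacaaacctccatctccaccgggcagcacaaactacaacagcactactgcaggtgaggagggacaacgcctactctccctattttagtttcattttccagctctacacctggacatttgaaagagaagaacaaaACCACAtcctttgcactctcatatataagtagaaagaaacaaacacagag
Gzmc, chr14:56234658-56234907: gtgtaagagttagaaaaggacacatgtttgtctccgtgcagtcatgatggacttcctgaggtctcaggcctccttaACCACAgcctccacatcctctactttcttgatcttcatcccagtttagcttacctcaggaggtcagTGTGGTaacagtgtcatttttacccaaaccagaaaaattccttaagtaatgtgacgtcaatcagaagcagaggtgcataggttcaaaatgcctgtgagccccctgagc
Gzmd, chr14:56132594-56132843: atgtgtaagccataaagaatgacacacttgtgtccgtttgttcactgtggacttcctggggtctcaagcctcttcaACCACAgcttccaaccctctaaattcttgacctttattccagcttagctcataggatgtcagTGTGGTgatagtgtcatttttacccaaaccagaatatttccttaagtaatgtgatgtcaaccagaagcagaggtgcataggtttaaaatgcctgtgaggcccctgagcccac

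After alignment, the Gzmc and Gzmd windows were identical at 82.4% of their 250 bases. Gzma was identical to the other 6 granzyme promoters at 49.2% to 53.2%, and Gzmb to those of its own cluster at 49.2% to 54.0%. All 7 granzyme promoters matched the table. Gzma held 1 RUNX core, at -50 to -45 from the start site, and Gzmb, Gzmc, Gzmd, Gzme, Gzmf and Gzmg held 2 each, at -174 to -169 and -108 to -103 in Gzmc. Of 32851 promoters of the same length, 14% held at least 1 and 1.27% at least 2. The AP-1 motif TGANTCA was found in Gzmb and not in the other 6 (6.75% of all promoters), and the STAT motif TTCNNNGAA (7.02%) and the T-box core TCACACC (3.33%) in none of the 7. Both strands were searched and no matches overlapped. A match describes letters and not binding. The transcript ends, where these UMIs were read, bear on the counts: the last 300 bases of Gzmd, Gzme, Gzmf and Gzmg were 85.7% to 89.3% identical to each other, with shared runs of 49 to 72 bases. Reads of these 4 genes are therefore uncertain as to which gene they came from. Gzmc was 53.3% to 58.3% identical to them, with shared runs of 10 bases.

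Splitting NK cells by both genes gave 4 sets. Gzma alone was found in 37 control and 42 Lyz2-icre cells (17.9% and 21.5%), both in 21 and 31 (10.1% and 15.9%), Gzmc alone in 105 and 98 (50.7% and 50.3%), and neither in 44 and 24 (21.3% and 12.3%). The sets and their comparison were made after the values were seen, on the same cells, so the levels are a description. All genes named for the sets outside the gene lists were chosen after their values were seen. The lists themselves were chosen with earlier results of these data known, so they are not independent of these cells. Their depths differed, with medians of 5543 and 3138 UMIs for Gzma alone, 9493 and 5008 for both, 7403 and 5335 for Gzmc alone, and 5569.5 and 3915 for neither. Cycling cells were 13.5% and 14.3% of the cells with Gzma alone and 33.3% and 25.5% of those with Gzmc alone.

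Cells with Gzma alone carried genes of circulating, mature NK cells. Of 3164 genes at 50 CPM or more in either set of each library, 46 (1.45%) were at least 2-fold higher in Gzma-only than in Gzmc-only cells in both libraries and 57 (1.8%) at least 2-fold lower, with a median log2 ratio of -0.01. Of 10 listed maturation genes 7 were higher with Gzma alone, among them Eomes, Itgam, Klra4, Klra8, Zeb2 and Klf2, none was lower, and their median log2 ratio was 1.92. Klf2, a transcription factor gene of cells that recirculate, stood at 195 and 193 CPM in Gzma-only cells and 53.0 and 36.1 CPM in Gzmc-only cells, and 1 control Gzma-only cell held 51.1% of its UMIs there (106 CPM without it). Eomes stood at 303 and 299 CPM against 48.5 and 48.2 CPM. At equal depth 43.2% and 42.9% of Gzma-only cells held an Eomes UMI, against 10.5% and 6.12% of Gzmc-only cells.

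Ccl5 followed the cells with Gzma alone. Its level was 3973 and 3446 CPM with Gzma alone, 353 and 547 CPM with both, 350 and 217 CPM with Gzmc alone and 461 and 246 CPM with neither. At equal depth 67.6% (50.2% to 82.0%) and 73.8% of Gzma-only cells held a Ccl5 UMI, against 19.0% and 12.2% of Gzmc-only cells. The C1q-high background was 13.2% and 13.5%. Cells with both gave 23.8% and 29.0%, and cells with neither 43.2% (28.3% to 59.0%) and 20.8%. In the control the intervals of Gzma-only cells and cells with neither thus overlapped. Ifng was at 277 and 460 CPM with Gzma alone and 110 and 99.8 CPM with Gzmc alone, and without the cell with the most Ifng UMIs the Lyz2-icre Gzma-only cells were at 285 CPM. Receptors differed too: Klra4 stood at 372 and 199 CPM with Gzma alone against 48.5 and 22.4 CPM.

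Genes of tissue residency and type 1 innate lymphoid cells, tissue-bound relatives of NK cells, were mostly higher with Gzmc alone than with Gzma alone. Of 10 such genes 6 were higher with Gzmc alone (Cxcr6, Tnfsf10, Tmem176a, Tmem176b, Inpp4b and Rora), none with Gzma alone, and the median log2 ratio was -1.89. Cxcr6, a chemokine receptor gene of tissue-resident lymphocytes, had no UMI in Gzma-only cells of either library and stood at 71.7 and 112 CPM in Gzmc-only cells. At equal depth 0 of 37 and 0 of 42 Gzma-only cells held a Cxcr6 UMI, which by 3 counts allows up to 8.11% and 7.14% and by the exact 95% interval 9.49% and 8.41%, against 16.2% and 18.4% of Gzmc-only cells. Il2ra, the high-affinity interleukin 2 receptor chain, likewise had no UMI with Gzma alone and stood at 64.0 and 98.1 CPM with Gzmc alone, the second value 55.1 CPM without 1 cell. Rora stood at 8.65 and 6.22 CPM against 143 and 86.0 CPM. Cells with neither granzyme also carried Cxcr6, at 66.2 and 92.2 CPM, and Rora, at 44.1 and 131 CPM. Rora was thus higher with neither than with Gzmc alone in the Lyz2-icre library, and lower in the control. Il2ra was lower with neither than with Gzmc alone in both libraries.

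Interferon-induced transmembrane genes and S100a4 followed the same line. Ifitm1 stood at 4.32 and 6.22 CPM with Gzma alone, 316 and 810 CPM with both, and 430 and 872 CPM with Gzmc alone. With both, 1 cell in each library held 92.6% and 60% of the Ifitm1 UMIs, and without it the levels were 27.8 and 351 CPM. Ifitm2 stood at 117 and 99.5 CPM against 895 and 1246 CPM, and was found in 8.11% and 11.9% against 51.4% and 73.5% of cells at equal depth. S100a4, a calcium-binding protein gene of motile cells, stood at 333 and 274 CPM against 1462 and 1793 CPM. Of 8 type I interferon response genes none differed 2-fold, and none of the 16 cell cycle genes did. The gate gene Ncr1 stood between 323 and 529 CPM in every set of both libraries.

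In cells with both granzymes, the levels of Gzmd and Gzmg rested on few cells, and in the control on 1 cell. Gzmd stood at 4149 and 4943 CPM with both, 853 and 865 CPM with Gzmc alone, and 8.65 and 0 CPM with Gzma alone. A single control cell held 847 of the 893 Gzmd UMIs and all 469 Gzmg UMIs of the 21 control cells with both. Without the cell with the most UMIs in each set, Gzmd stood at 256 and 3211 CPM with both and 667 and 645 CPM with Gzmc alone, so that the control order turned and the Lyz2-icre order did not. Gzmg stood at 2179 and 2421 CPM with both and 149 and 213 CPM with Gzmc alone. Without the top cell it was at 0 and 961 CPM with both and 76.9 and 59.5 CPM with Gzmc alone. At equal depth Gzmd was found in 19.0% of 21 and 25.8% of 31 cells with both, and in 23.8% and 21.4% of cells with Gzmc alone. Gzmg was found in 4.76% and 12.9% of cells with both and 6.67% and 8.16% of cells with Gzmc alone. Over 3073 genes, 17 (0.553%) were 2-fold higher and 34 (1.11%) 2-fold lower in cells with both than with Gzmc alone in both libraries. Prf1 stood at 1436 and 1514 CPM with both, 955 and 753 CPM with Gzma alone, 773 and 630 CPM with Gzmc alone, and 279 and 231 CPM with neither. Klrg1, an inhibitory receptor gene of terminally mature cells, stood at 79.0 and 106 CPM with both and 16.5 and 3.44 CPM with Gzmc alone. With Gzma alone it stood at 21.6 and 43.5 CPM, below the cells with both. Without its top cell Klrg1 was at 38.9 and 93.2 CPM in cells with both.

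**Figure D3:**
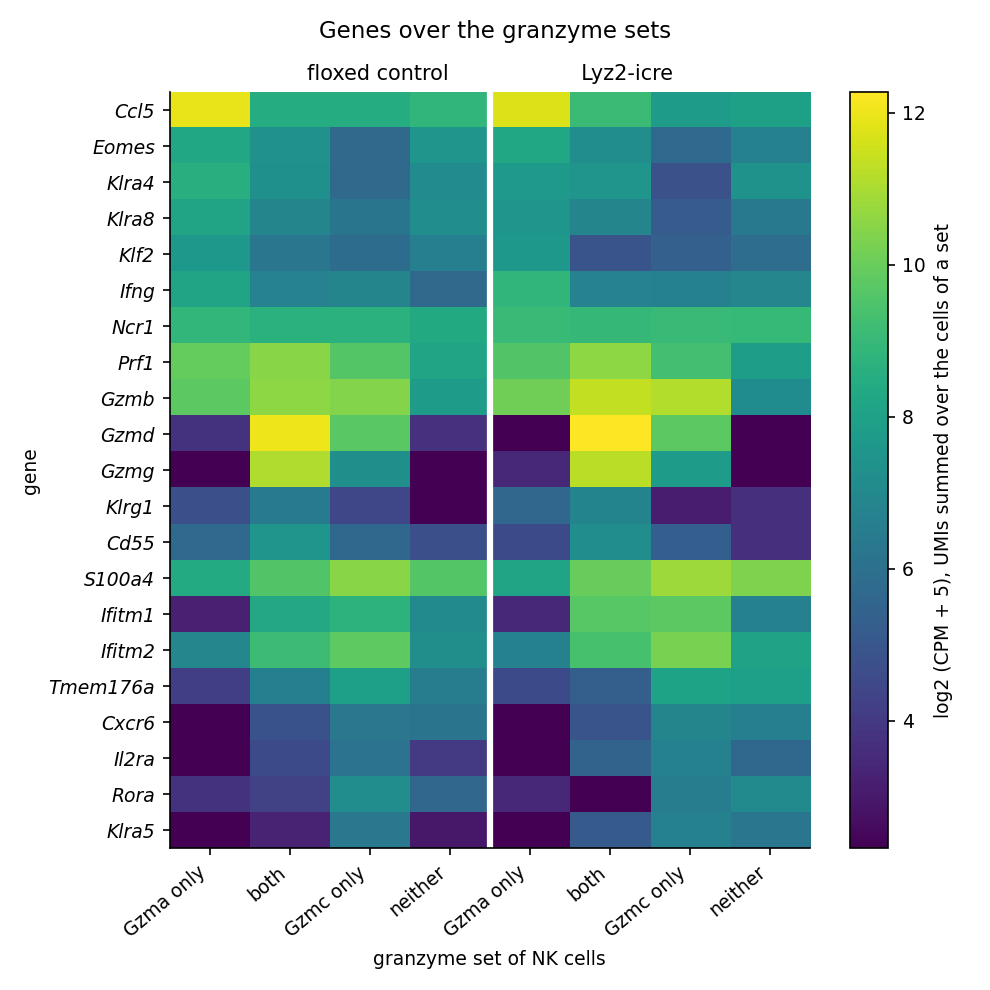
Expression of 21 genes in the 4 granzyme sets of NK cells in each library, as log2(CPM + 5). Ccl5, Eomes and Klra4 are highest with Gzma alone, and Cxcr6, Il2ra and Ifitm1 are lowest there, in both libraries.

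Markers of other cells also differed between the sets. The macrophage gene Lyz2 stood at 2987 CPM with Gzma alone and 899 CPM with Gzmc alone in the control library, and at 417 and 145 CPM in the Lyz2-icre library. The control value with Gzma alone rested on 1 cell with 588 of 691 Lyz2 UMIs. Without the top cell of each set the values were 497 and 745 CPM in the control and 311 and 83.4 CPM in the Lyz2-icre library. Cells set aside for macrophage or fibroblast RNA numbered 2 and 3 with Gzma alone, none with both, 9 and 2 with Gzmc alone, and 6 and 0 with neither. Without them Gzmc was found in 37.5% of Gzma-positive and 71.6% of Gzma-negative control cells, and in 44.3% and 80% of Lyz2-icre cells.

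Between the genotypes, most genes of NK cells lay close together. Of 3315 genes at 50 CPM and 30 UMIs or more in the higher library, 53 (1.6%) were at least 1.5-fold higher in Lyz2-icre NK cells and 143 (4.31%) at least 1.5-fold lower, and the median log2 ratio was -0.02. With the gates read at 2000 UMIs the counts were 96 and 317, and without cycling cells 219 genes were lower. The genes at the minimum depend on the setting, so these counts are not shares of the same 3315 genes. None of 16 adaptor, 20 transcription factor, 10 residency, 8 checkpoint, 8 type I interferon, 16 glycolysis, 17 cell cycle, 14 MHC class I and 4 osteopontin receptor genes was among the 53 higher and 143 lower genes. Prf1, Xcl1, Ccl5, Eomes, Tbx21, Itga1, Il2rb and the proliferation gene Mki67 had log2 ratios between -0.18 (Eomes) and 0.05 (Itga1), and Mki67 stood at 150 and 152 CPM. Among osteopontin receptors, the hyaluronan receptor gene Cd44 stood at 184 and 155 CPM, and the integrin genes Itgb1 at 444 and 472 CPM and Itgav at 137 and 92.9 CPM.

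The receptors showed small shifts. Klrd1, the CD94 chain that pairs with NKG2 receptors, stood at 888 CPM in the control and 1324 CPM in the Lyz2-icre library (log2 0.57), and Klrc1 at 163 and 230 CPM (0.48). The same pair was higher in T cells of the Lyz2-icre library, by 0.73 and 0.62 on the log2 scale. Of 14 genes in the activating receptor list, 1 was lower (Klra8, at 118 and 76.3 CPM), and the 1 higher, Ly6c2, at 187 and 296 CPM, encodes a Ly6 surface protein and is also counted in the maturation list. It had a log2 ratio of -0.21 in male cells. Of 10 inhibitory receptor genes 1 was higher, Klra5, at 40 and 67.1 CPM. Of 17 cytokine receptor and signalling genes Il2ra was higher and Il18r1, an interleukin 18 receptor chain, was lower, at 74.2 and 45.1 CPM. Itgam, the integrin gene of CD11b, was lower among 17 homing genes, at 82.3 and 42.3 CPM, and turned to a log2 ratio of 0.24 without the cells holding macrophage or fibroblast RNA and 0.48 in male cells.

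Granzymes A and B were higher in the Lyz2-icre library. Gzma stood at 1237 and 2233 CPM (ratio 1.81, 1.70 to 1.92, log2 0.85) and Gzmb at 1066 and 1887 CPM (ratio 1.77, 1.66 to 1.89, log2 0.82), the only 2 of the 19 listed cytotoxic genes past 1.5-fold. Gzmg, which is not in that list, was also past it, at 351 and 554 CPM (log2 0.65), with 77.5% and 50.1% of its UMIs in 1 cell of each library. The tenth of NK cells with the most Gzma UMIs held 72.0% of them in the control and 58.5% in the Lyz2-icre library, a spread that the ratio interval leaves out. Without the cells holding macrophage or fibroblast RNA the log2 ratios of Gzma and Gzmb were 0.67 and 0.77. Gzmb was higher in female cells (0.62) and in male cells (1.30). Gzma was higher in female cells (1030 and 2368 CPM, log2 1.197) and lower in male cells (2243 and 1697 CPM, log2 -0.40), so its direction was not shared by the sexes. In T cells the log2 ratios were 1.61 for Gzma and 0.31 for Gzmb. Gzmc stood at 8413 and 10376 CPM, a ratio of 1.23.

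Other genes were higher in Lyz2-icre NK cells. Ifitm1 stood at 294 and 627 CPM (ratio 2.13, 1.90 to 2.39, log2 1.08), and was found in 12.1% and 20% of cells at equal depth. Its UMIs lay mostly in cells with Gzmc, it was higher in female (0.97) and male cells (2.18), and its log2 ratio in T cells was 0.52. The rest of the 12 highest were Cdk2ap1, Kri1, Pih1d1, Il2ra, Ak6, Klra5, Dnajb1, Fasn and Ly6c2, beside the 2 granzymes. Cdk2ap1, a cell cycle regulator gene, stood at 26.7 and 58.8 CPM and Fasn, the fatty acid synthase gene, at 40.6 and 67.1 CPM. The level of Il2ra, 38.2 and 67.1 CPM, rested on 1 Lyz2-icre cell with 35.6% of its UMIs, and without the deepest 5% of cells its log2 ratio was -0.17.

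Ccl3, Ccl4 and 5 immediate early genes were lower in Lyz2-icre NK cells, while 5 of the 9 secreted factor genes, Xcl1, Ccl5 and Ccl1 among them, had log2 ratios above 0. Ccl3 stood at 127 and 52.4 CPM (ratio 0.411, 0.302 to 0.552, log2 -1.21) and Ccl4 at 574 and 382 CPM (log2 -0.58, and 1.5-fold before 5 CPM is added), and without the cells holding macrophage or fibroblast RNA their log2 ratios were -0.73 and -0.33. They encode macrophage-attracting chemokines that NK cells release on activation. In T cells both went the other way, with log2 ratios of 0.50 and 0.67. Ccl4 was found in 34.3% and 21.0% of NK cells at equal depth, against 42.0% and 30.2% of C1q-high cells. For Ccl3 the shares were 11.1% and 5.64%, against 31.0% and 19.3% of C1q-high cells. Both genes were thus in more C1q-high than NK cells, and were lower in the Lyz2-icre library in both classes. A single control NK cell held 26.4% of the Ccl3 UMIs of control NK cells. In male cells Ccl3 was higher in the Lyz2-icre library (17.3 and 47.5 CPM, log2 1.24), and with the mean of per-cell CPM the log2 ratio of Ccl4 was 0.0063. Of 18 immediate early genes, which respond within minutes to activation or to tissue handling, 5 were lower (Fosb, Jun, Egr1, Atf3 and Nfkbia), none higher, with a median of -0.29 against -0.08 in T cells. Fosb stood at 402 and 254 CPM and Jun at 407 and 249 CPM. In male cells Nfkbia was at 319 and 404 CPM (log2 0.34), Egr1 at 0.04, Jun at 0.01 and Fosb at -0.04. Without the cells holding macrophage or fibroblast RNA, Jun was at -0.06 and Egr1 at -0.01, and Fosb at -0.32, Atf3 at -0.44 and Nfkbia at -0.35, all 5 under 1.5-fold.

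The 12 lowest genes were Gsn, Mir6236, Gvin-ps6, Pcm1, Zyg11b, Tpt1-ps3, Mxd4, Spp1, Csrp1, Anxa1, Tuba1a and Ahr. Some were lower in other classes as well. At equal depth Mir6236 was found in 27.5% and 11.1% of T cells and 18.6% and 8.72% of C1q-high cells. Mxd4 was found in 18.5% and 11.7% of T cells and 8.67% and 6.74% of C1q-high cells. Csrp1 (11.1% and 12.7%) and Anxa1 (7.32% and 11.3%) went the other way in T cells. Gsn, the gelsolin gene, stood at 261 and 42.3 CPM, with 38.4% of control UMIs in 1 cell, and it turned to 16.0 and 38.1 CPM without the cells holding macrophage or fibroblast RNA. Anxa1 likewise stood at 238 and 137 CPM with these cells and 140 and 135 CPM without, and had a log2 ratio of 0.18 in male cells. Gvin-ps6, a pseudogene of an interferon-inducible GTPase, was found in 32.4% and 14.9% of cells at equal depth, and its log2 ratio was -1.07 in NK and -0.96 in T cells. Pseudogene and overlapping transcripts of this kind can share reads with their parent genes. Ahr, the aryl hydrocarbon receptor gene, was at 59.7 and 33.1 CPM in NK cells and 61.6 and 33.9 CPM in T cells.

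**Figure D4:**
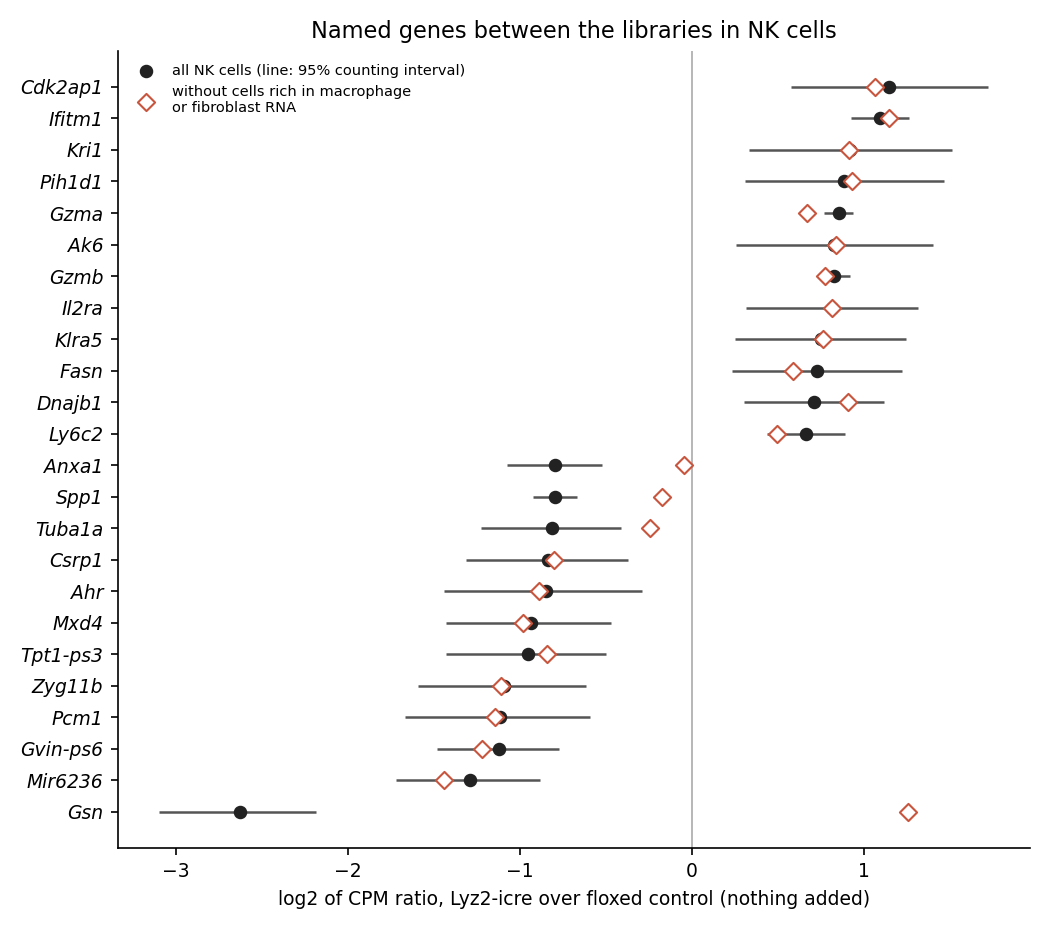
Ratio of CPM in Lyz2-icre over control NK cells for the 12 highest and 12 lowest genes, on a log2 axis with nothing added, with 95% counting intervals. Diamonds show the ratio without cells holding macrophage or fibroblast RNA, where Gsn crosses to the other side and Anxa1, Tuba1a and Spp1 come near 0.

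Spp1 itself remained in NK cells of the Lyz2-icre library. Its level was 1070 CPM in NK cells of the control and 617 CPM in Lyz2-icre NK cells (ratio 0.576, 0.527 to 0.630), and 722 and 640 CPM (log2 -0.17) without the cells holding macrophage or fibroblast RNA. Within the sexes the log2 ratio was -0.44 in female and 0.23 in male cells. In C1q-high cells, the main target of Lyz2-icre, the same gene (chr5:104435118-104441050, plus strand, GRCm38) stood at 620 and 9.44 CPM, and in T cells at 348 and 213 CPM. At equal depth, 34.8% of control NK cells (28.3% to 41.7%) and 28.2% of Lyz2-icre NK cells (22% to 35.1%) held a Spp1 UMI. For C1q-high cells the shares were 38.3% and 0.728%, and for T cells 19.9% and 10.5%. The NK share was above that of C1q-high cells in the Lyz2-icre library and below it in the control library.

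The granzyme sets differed in Spp1 in the Lyz2-icre library. There, 58.1% of 31 cells with both granzymes (39.1% to 75.5%), 32.7% of 98 cells with Gzmc alone (23.5% to 42.9%), 12.5% of 24 cells with neither and 4.76% of 42 cells with Gzma alone (0.582% to 16.2%) held a Spp1 UMI. The levels were 1955, 463, 84.5 and 18.7 CPM. In the control library the 4 sets gave 33.3%, 37.1%, 22.7% and 43.2% (27.1% to 60.5%) in the same order. Gzma-only cells stood at 1102 CPM of Spp1 in the control and 18.7 CPM in the Lyz2-icre library, and Gzmc-only cells at 1008 and 463 CPM. In the control, 1 cell held 71.0% of the Spp1 UMIs with Gzma alone. Without the top cell of each set, Gzma-only cells stood at 357 and 12.7 CPM, Gzmc-only cells at 654 and 421 CPM, and cells with both at 562 and 1507 CPM. Without the cells holding macrophage or fibroblast RNA the shares were 33.3%, 34.4%, 21.1% and 42.9% in the control and 58.1%, 33.3%, 12.5% and 5.13% in the Lyz2-icre library, in the same order. Free RNA taken up by the other cells was not measured.

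**Figure D5:**
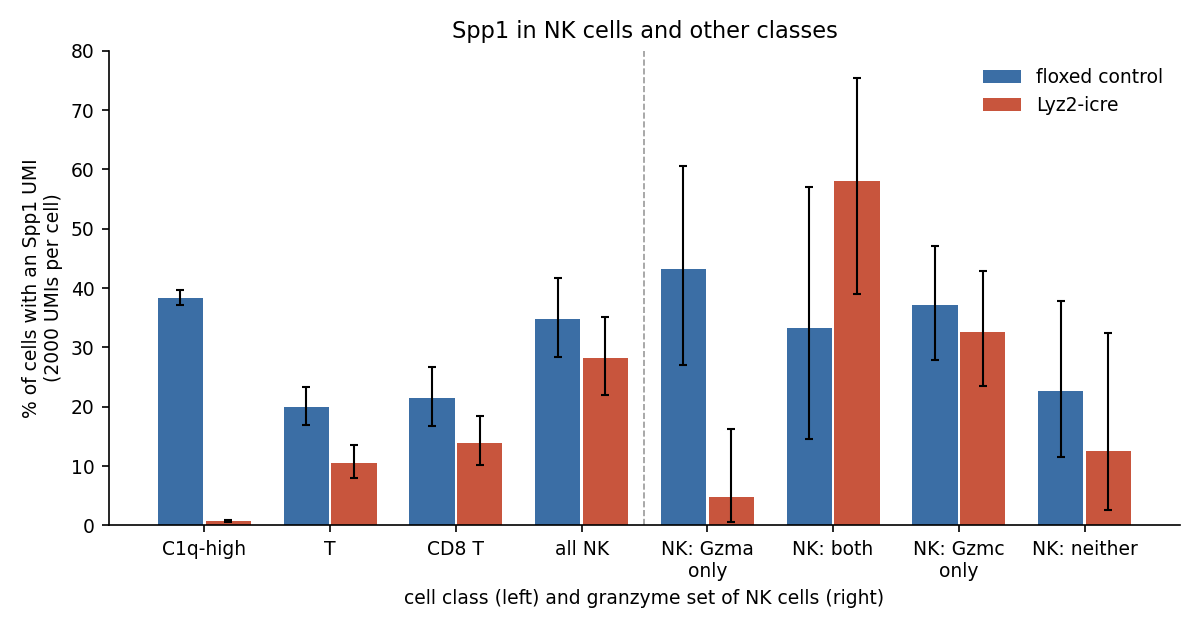
Share of cells with a Spp1 UMI at 2000 UMIs per cell, with exact 95% intervals, in C1q-high, T, CD8 T and all NK cells and in the 4 granzyme sets of NK cells, for both libraries. In the Lyz2-icre library C1q-high cells are at 0.728% and NK cells with both granzymes at 58.1%, and Gzma-only cells at 4.76%.

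Lyz2, the gene that carries the Cre allele, was at 1359 CPM in control NK cells and 194 CPM in Lyz2-icre NK cells, and at 379 and 113 CPM without the cells holding macrophage or fibroblast RNA. In C1q-high cells it stood at 10996 and 3909 CPM. At equal depth 52.7% and 18.0% of NK cells held a Lyz2 UMI. It made up 1359 of the 2923 CPM of the 13 macrophage markers in control NK cells and 194 of the 1501 CPM in Lyz2-icre NK cells. The part of macrophage RNA in the differences between libraries was measured only by leaving out the cells richest in it.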

How the data were processed

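The measurements were 10x Genomics 3-prime (V3) single-cell RNA libraries of sorted CD45-positive cells, 1 per genotype. The submitters' processing notes name bcl2fastq 5.0.1, Cell Ranger and mm10, and the file headers give Cell Ranger 8.0.1. The annotation release is not given in the sources used here. The analysis started from raw UMI counts, as deposited by the authors for called cells, 88529822 UMIs in 9154 control barcodes and 98275787 UMIs in 13944 Lyz2-icre barcodes. Free RNA could not be estimated without empty droplets, which were not used here.

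Barcodes were kept from 300 genes and 500 UMIs upward and up to a mitochondrial share of 15%. Counts were summed over the NK, T or C1q-high cells of a library and scaled to CPM. Intervals are exact conditional binomial for ratios and Clopper-Pearson for shares. Log2 ratios carry 5 CPM added. For shares at equal depth each cell was drawn to 2000 UMIs, which kept 207 and 195 NK cells, and shallower cells were left out. A count of 0 was given the limit of 3 counts. Female cells had Xist and none of 4 Y-linked genes, and male cells had a Y-linked gene and no Xist. PCR and capture error are not covered by the intervals. The tools were numpy 2.4.6, pandas 2.3.3, scipy 1.17.1, matplotlib 3.10.9 and Biopython 1.88, and ratios and thinning were tested on simulated data. Gene coordinates came from the GENCODE annotation of GRCm38 and promoters from RefSeq.

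Named genes between libraries were the 12 highest and 12 lowest log2 ratios with at least 50 CPM and 30 UMIs in the higher library, a UMI in 10% of its NK cells, an interval clear of 1, and a level no lower than in C1q-high cells. Between NK and T cells they were the 12 highest and 12 lowest 2-fold in both libraries at 50 CPM. Gate, mitochondrial, ribosomal, haemoglobin, sex-linked, receptor-segment and unnamed genes were left out. Up to 2 members at each end of each of 18 gene lists at 20 CPM, and 24 NK genes, were also open to naming. The members, lists and the granzyme sets were chosen with earlier results of these data known. Of the list and marker genes 2 were not in the files. Some list and marker genes are counted in their lists but not reported here by name. Alternatives covered the cell filter, each gate, depth, deep and cycling cells, sex, scaling, the added CPM and the minimum.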

Additional observations from a re-analysis of the deposited data

Results flagged for a closer look

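In Gzma, Tyrobp and Xcl1, NK cells of the sexes went opposite ways between the libraries, with counting intervals clear of a ratio of 1 in both sexes. These intervals leave out the spread from cell to cell. The difference between the sexes was not tested. Gzma had a log2 ratio of Lyz2-icre over control of 1.197 in female and -0.40 in male NK cells. Tyrobp, the DAP12 adaptor gene, had 0.43 in female and -0.48 in male cells. Xcl1, the dendritic cell-attracting chemokine gene, had -0.34 in female and 0.70 in male cells. Other genes also went opposite ways, among them Ccl1 (-0.77 in female and 4.35 in male cells) and Klf2 (-1.22 and 1.38). In male cells Ccl1 counted 1 UMI in the control and 39 in the Lyz2-icre library. The male values rest on 32 control and 39 Lyz2-icre NK cells, against 156 and 129 female cells.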

How the results depend on the processing

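No paired analysis was possible because each genotype had 1 library. With the gates read at 2000 UMIs, the ratio of NK shares was 0.841 among kept cells and 1.44 among NK and T cells, and 96 genes were higher and 317 lower in Lyz2-icre NK cells. With no minimum on CPM or UMIs, 2819 genes were higher and 4822 lower, of 16421 genes with a UMI in NK cells, and 128 were higher in NK and 258 in T cells. The set of genes read depends on the setting. The gene counts under alternatives are therefore not shares of the 3315 or 3308 genes of the main comparisons. Male cells alone gave ratios of 0.893 and 1.28, 164 higher genes, and Gzmc in 61.5% of Gzma-positive control and 27.3% of Gzma-positive Lyz2-icre cells. Genes with log2 ratios of opposite sign in male cells included Anxa1 (0.18), Ccl3 (1.24), Gsn (0.90), Gzma (-0.40), Itgam (0.48), Ly6c2 (-0.21), Nfkbia (0.34) and Spp1 (0.23), with Egr1 (0.04) and Jun (0.01) near 0. Without the deepest 5% of NK cells Gsn was at 0.16 and Il2ra at -0.17. Without cycling cells Il2ra was at -0.21 and 219 genes were lower. A C1q limit of 1% left 58 genes higher in T cells. The mean of per-cell CPM put Ccl4 at 0.0063. Without thinning, the control share was 39.7% for Gzma, 69.6% for Gzmb and 56.1% for Spp1, and the Lyz2-icre share 77.3% for Gzmb and 40.6% for Spp1. At 1000 UMIs the control share was 41.8% for Gzmb and 24.9% for Spp1, and the Lyz2-icre share 53.9% for Gzmb.

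Alternatives chosen after seeing the data were leaving out cells with macrophage or fibroblast RNA, leaving out the top cell of a granzyme set, marker sums without gate genes, and all settings of the granzyme sets. The first gave 155 genes higher in T cells and Gsn at 1.04. Among Gzma-negative cells Gzmc was found in 57.4% of control and 69.8% of Lyz2-icre cells at a threshold of 5 UMIs, and in 61.1% of control cells at 1000 UMIs. The cause of these shifts was not tested. The other 122 values of shares and gene counts under alternatives stayed within the error or within 1.5 times of the reported value, as did 605 of the values of single genes, while 115 of those moved further in size. Scaling by the median of ratios shifted all genes by -0.02 between libraries. Depth limits single genes, since 30 UMIs in about 200 cells set the smallest level read, and 1 cell can hold much of a gene.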
